A study of Homo sapiens with 2 samples.

Results

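Eukaryotic translation initiation factors are the proteins that bring the small ribosomal subunit, the initiator methionyl-tRNA and an mRNA together at the start codon. Their genes were compared between 2 RNA-seq libraries of U87MG, an established human glioblastoma cell line. The members were the protein-coding rows of the deposited table whose gene symbol begins with EIF and a digit between 1 and 6, with the eIF2 kinases (EIF2AK genes) left out. The rule found 52 genes of 58735 in the table, among 19951 protein-coding ones. It goes by name, so it also takes in EIF4A3 of the exon junction complex, EIF1AD, which carries an eIF1A-like domain, and the repressive 4E-binding proteins.

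The cells of 1 library, labelled shTRIP13, had been transduced with a lentivirus carrying an shRNA against TRIP13, an AAA+ ATPase of the spindle checkpoint. The cells of the control library had received the pGIPZ control lentivirus. Both were selected with puromycin as stable clones, whose number per library is not given in the sources used here, and grown as glioma spheres for a week under conditions used for stem cells, and total RNA was taken from each. With 1 library per condition there is no replicate check, and neither a test nor a p-value is given. The targeted gene TRIP13 was higher where its shRNA was the label, at 23.1 FPKM against 11.9 FPKM in the control library (1593 against 819 reads), and the directions below are therefore directions between the libraries as labelled.

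Initiation starts when eIF4E binds the 5′ cap of an mRNA and the scaffold eIF4G joins it with the helicase eIF4A and with eIF3 on the small subunit. eIF2 delivers the initiator tRNA as a GTP complex, eIF1 and eIF1A hold the subunit in a scanning state, and eIF5 triggers GTP hydrolysis at the start codon. eIF2B then recharges eIF2 with GTP, and eIF5B joins the large subunit. Phosphorylation of eIF2 lowers initiation in stress, and the kinase mTORC1 frees eIF4E by phosphorylating the 4E-binding proteins. The transcription factor MYC, often raised in cancer, is known to activate genes of ribosome production and several initiation factors, EIF4E among them.

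The table gives FPKM, fragments scaled to exon length in kilobases and to a library total. Levels of different genes are compared per whole annotated exon length, whose part in differences between genes was not tested. In both columns the product of FPKM and exon length came in whole steps of the same size, which gave back the reads, 19903836 in the library labelled shTRIP13 and 18871063 in the control library. Both columns had been divided by 1 common total, and the deposited values are not corrected for a depth ratio of 1.055. VIM (427 against 442 FPKM) and CD44 (112 against 115 FPKM), which mark mesenchymal glioma cells, were abundant in both libraries. Of the stem cell markers, SOX2 had 1 and 2 reads and PROM1 1 and 5 in the library labelled shTRIP13 and the control library. GFAP, also on the list of glioma markers, had 28 and 92 reads in the same order. NES was at 2.21 against 5.23 and OLIG2 at 0.339 against 2.72 FPKM. Of the 7 glioma markers, all but SOX2 and PROM1 had counting intervals below 1. Summed FPKM was 0.191 against 0.426 for 4 immune markers, 0.0364 against 0.723 for 3 endothelial, 0.108 against 0.229 for 3 oligodendrocyte and 2.77 against 2.91 for 4 neuronal markers. The neuronal markers went both ways. TUBB3 was higher, at 1.15 against 0.722 FPKM, MAP2 (1.33 against 1.75 FPKM) and RBFOX3 (5 against 17 reads) were lower, and the counting interval of SYP held 1. AIF1 and MOG were listed at 0 in both libraries. For 5 fibroblast and pericyte markers, all lower in the library labelled shTRIP13, the sum was 31.4 against 51 FPKM, with PDGFRB at 1.74 against 12.4 and DCN at 0.133 against 1.55. The part of these markers in the results below was not tested. In bulk RNA, fewer cells that express a gene and less RNA of it per cell cannot be told apart.

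Most initiation factor genes were higher in the library labelled shTRIP13, by less than 2-fold. A mean FPKM of at least 1 was required, which 49 of the 52 members met. The value compared is the log2 ratio, that of FPKM with a pseudocount of 1 between the library labelled shTRIP13 and the control library, which understates differences of weakly expressed genes. It was above 0 for 41 of the 49, where 60.2% of 10671 protein-coding genes past the same filter were above 0, and for 8 of the 41 the sign turned under another scaling. The median was 0.24 for the initiation factors and 0.12 for all genes. Values ran between -0.54 for EIF3L and 1.22 for EIF6, while all genes spanned -6.70 to 3.96.

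**Figure D1:**
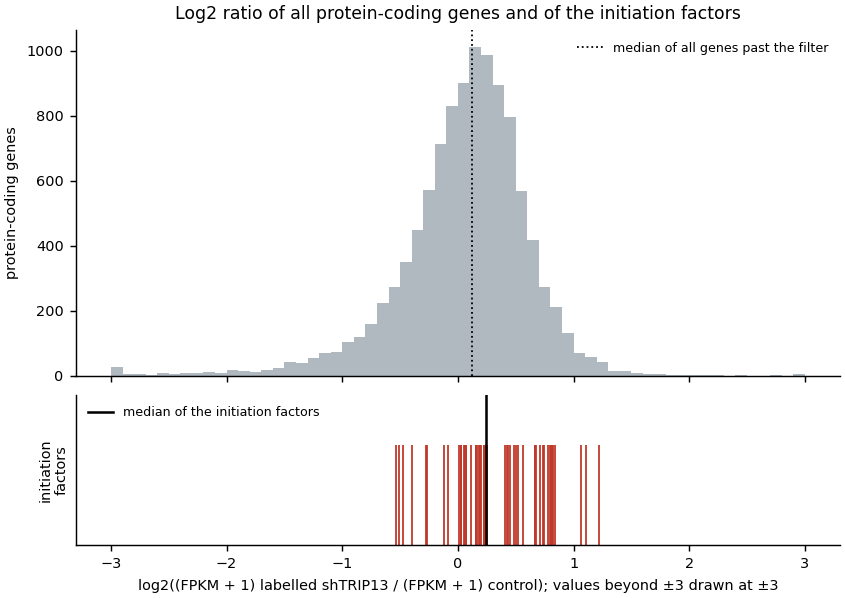
The upper panel is a histogram of the log2 ratio (x axis) over 10671 protein-coding genes, with the count of genes on the y axis and their median of 0.12 as a dotted line. In the lower panel each of 49 vertical lines is an initiation factor gene and the thick line is their median of 0.24. All 49 lie between -0.54 and 1.22.

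At least 2-fold higher were 3 of the 49 members, where 2.17% of all genes were, and at least 2-fold lower were 0 of them, where 4.19% of all genes were. Among the 3 are the near-identical copies EIF3C and EIF3CL, and EIF3CL met the filter through the library in which it is high. Without members of near-identical pairs, 1 of 42 was at least 2-fold higher, near the 2.17% of all genes. With a smaller size of 1.5-fold, 15 members were higher, where 12.5% of all genes were, and 0 were lower, where 10.2% of all genes were. That split depended on the scaling, and so did the shares of all genes. With the median log2 ratio of all genes set to 0 it was 12 higher (7.83% of all genes) and 3 lower (13.3% of all genes). After rescaling to TPM it was 14 higher (9.95% of all genes) and 3 lower (17.2% of all genes). With each library divided by its own total it was 15 higher (9.62% of all genes) and 2 lower (11.7% of all genes). Setting the median to 0, or rescaling to TPM, shifted the median over all genes by -0.12. In this section a ratio is the ratio of FPKM, given with a 95% exact (Clopper-Pearson) interval from the split of the reads, which covers counting error only. The interval lay above 1 for 34 members (49% of all genes) and below 1 for 7 (29.5% of all genes), and it held 1 for 8. The median ratio over all genes was 1.1, and the intervals of 28 members lay above it (37.9% of all genes) and those of 9 below it (38.1% of all genes).

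The initiation factors were among the more abundant mRNAs. The median FPKM of members past the filter was 24.5 in the library labelled shTRIP13 and 20.2 in the control library. For all genes past the filter it was 8.01 and 7.55. Among all 19951 protein-coding genes the median member past the filter stood at percentile 90.6 of mean FPKM, and 16 of the 49 were among the 5% highest. These 19951 include the genes below the filter, which raises the percentile of members that had to pass it. Their background is therefore also given at higher levels. At a mean of at least 5 FPKM, 13 of 42 initiation factors were at least 1.5-fold higher, where 15.5% of 6992 genes were, and the median of all those genes was 0.19. Reads of the 49 members made up 1.03% of the library labelled shTRIP13 and 0.849% of the control library.

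**Figure D2:**
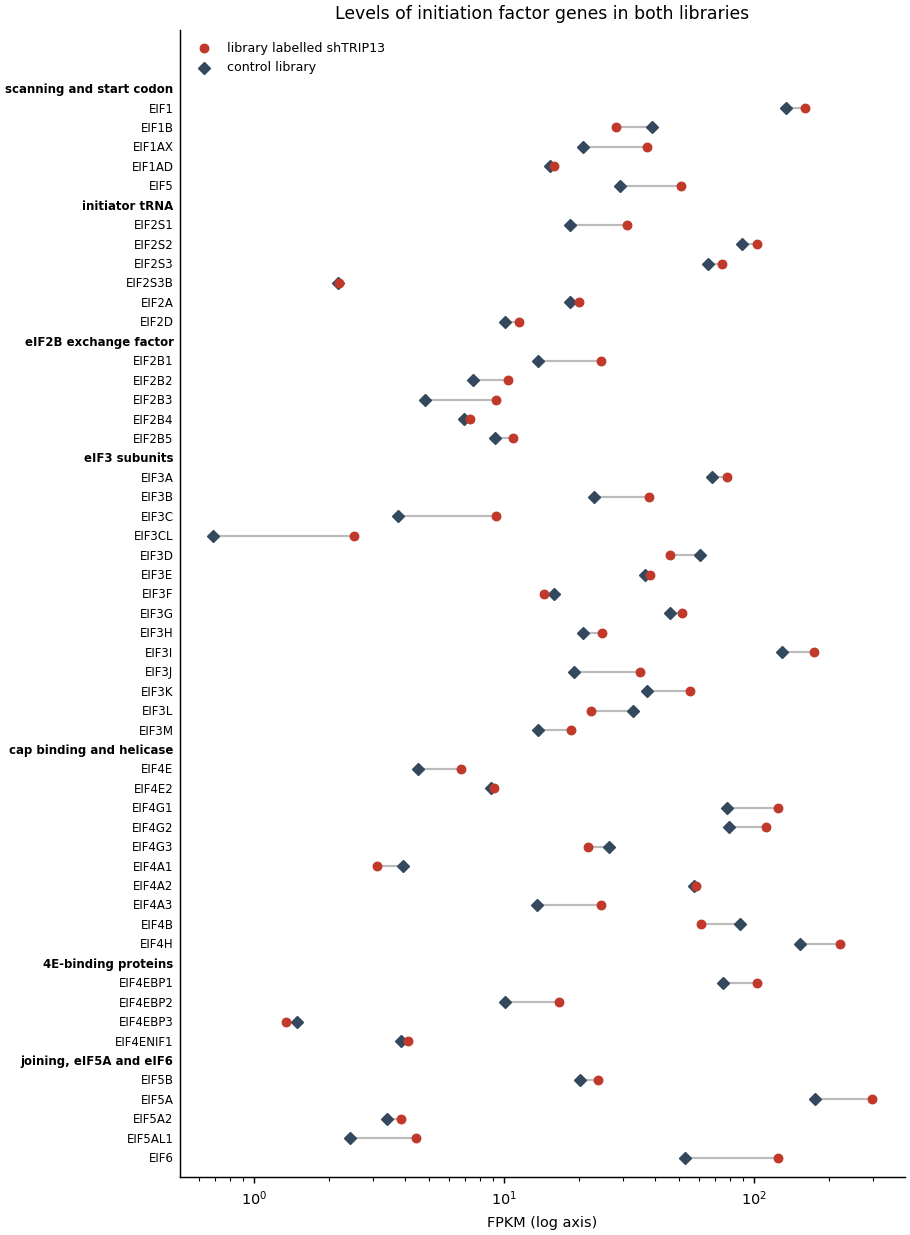
FPKM on a log axis for the 49 initiation factor genes past the filter, grouped by role down the page. Circles are the library labelled shTRIP13 and diamonds the control library, and the grey line joins both values of a gene. Circles lie to the right of diamonds for 41 genes, and EIF5A has the highest level in both libraries.

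The highest log2 ratio as deposited was that of EIF6, although EIF3C and EIF3CL, described with eIF3, had higher ratios of FPKM and exceeded EIF6 with a pseudocount of 0.1 and under TPM. EIF6 (ENSG00000242372) lies on hg38 chromosome 20, 35278911 to 35284985, minus strand. eIF6 binds the large ribosomal subunit, keeps it from joining the small one too early and takes part in the maturation of the large subunit. EIF6 had 124 FPKM in the library labelled shTRIP13 and 53 FPKM in the control library, from 3934 and 1674 reads. Its ratio was 2.35 (2.22 to 2.49), and it ranked 92 from the highest log2 ratio among the 10671 genes. Over the alternatives its log2 ratio stayed between 1.10 and 1.23. Of its exon length, 17.4% overlaps another annotated gene, AL121753.1, which was lower, at 2.93 against 5.27 FPKM.

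eIF5A carries the unusual amino acid hypusine and helps peptide bonds form at difficult sequences, in elongation as well as initiation. EIF5A (ENSG00000132507, hg38 chromosome 17, 7306999 to 7312463, plus strand) had the highest level of all members in both libraries, 295 FPKM in the library labelled shTRIP13 against 175 FPKM in the control library. Its ratio was 1.68 (1.64 to 1.73) from 16115 against 9570 reads. Its paralog EIF5A2 was low, at 3.88 against 3.39 FPKM, a ratio of 1.15 whose interval (0.995 to 1.32) held 1. EIF5A was thus 76.1 times the level of EIF5A2 in the library labelled shTRIP13 and 51.8 times in the control library. EIF5AL1, a copy listed as a gene of its own on chromosome 10, had 4.46 against 2.43 FPKM, a ratio of 1.83 (1.53 to 2.21). The coding sequences of EIF5A and EIF5AL1 are 98.9% identical, with 5 differences in 462 bases, while EIF5A and EIF5A2 are 71.9% identical. The stretch below, coding bases 121 to 180 counted from the A of the start codon, holds the lysine codon that is changed to hypusine. It shows how close the copies are, with the bases that differ from EIF5A in capitals (GENCODE release 29 transcripts).
EIF5A: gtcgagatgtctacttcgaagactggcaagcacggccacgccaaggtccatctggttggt
EIF5AL1: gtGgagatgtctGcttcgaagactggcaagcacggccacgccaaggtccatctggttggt
EIF5A2: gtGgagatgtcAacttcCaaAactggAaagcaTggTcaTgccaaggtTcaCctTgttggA
EIF5AL1 differs at 2 of these 60 bases and EIF5A2 at 12. Reads of EIF5A and EIF5AL1 could be split between them in counting. Their reads pooled gave a ratio of 1.69 (1.64 to 1.73), from 16447 against 9751 reads.

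The enzymes that make hypusine lay on opposite sides of 1. DOHH, the hydroxylase of the last step, had 24.1 against 15.5 FPKM, a ratio of 1.55 (1.4 to 1.72). DHPS, the synthase of the first step, had 1.68 against 2.45 FPKM, a ratio of 0.685 (0.524 to 0.892) from 98 against 143 reads. EIF5B, the GTPase of subunit joining, had 23.7 against 20.2 FPKM, a ratio of 1.18 (1.12 to 1.23).

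Among the factors of scanning and start codon choice, EIF1AX and EIF5 were higher and EIF1B lower. EIF1AX, the X-linked gene of eIF1A, had 37.2 FPKM in the library labelled shTRIP13 and 20.6 FPKM in the control library, a ratio of 1.81 (1.71 to 1.92). EIF5, the GTPase-activating protein of eIF2, had 50.8 against 29.1 FPKM, a ratio of 1.74 (1.68 to 1.81). EIF1, which opposes initiation at codons other than AUG, was the most abundant of this group at 159 against 134 FPKM, a ratio of 1.19 (1.16 to 1.22). Its paralog EIF1B went the other way, at 28 against 39.2 FPKM, a ratio of 0.713 (0.657 to 0.772). EIF1 and EIF1B have coding sequences of 339 bases with 61 differences. EIF1 was 5.7 times the level of EIF1B in the library labelled shTRIP13 and 3.41 times in the control library. EIF5, which in mammals and yeast opposes EIF1 in start codon choice, stood at 0.318 of the EIF1 level in the library labelled shTRIP13 and at 0.217 of it in the control library. EIF1AD had 15.9 against 15.3 FPKM, which was not distinguishable from 1 at this depth (0.953 to 1.14).

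The subunits of eIF2 differed among themselves. EIF2S1, the alpha subunit that the stress kinases phosphorylate, had 31.1 FPKM in the library labelled shTRIP13 and 18.3 FPKM in the control library, a ratio of 1.7 (1.61 to 1.8). EIF2S2, the beta subunit, had 103 against 89.7 FPKM, and EIF2S3, the gamma subunit that binds GTP and tRNA, had 74.3 against 65.2 FPKM. Both had a ratio of 1.14, with intervals that reached 1.19 and did not overlap that of EIF2S1. EIF2S1 was the least abundant of the 3 in both libraries, with EIF2S2 at 3.3 times its level in the library labelled shTRIP13 and 4.91 times in the control library. EIF2S3B, a copy of EIF2S3 whose coding sequence is 98.2% identical, was low at 2.19 against 2.17 FPKM. EIF2A and EIF2D, which can bring initiator tRNA to the ribosome without eIF2, had 19.9 against 18.4 and 11.5 against 10.1 FPKM.

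eIF2B is the exchange factor whose loss of function causes vanishing white matter disease. Its 5 subunits had a median log2 ratio of 0.43, and all were above 0 except that EIF2B4 turned below 0 under 2 scalings. EIF2B3 of the gamma subunit had 9.26 against 4.84 FPKM, a ratio of 1.91 (1.67 to 2.2). EIF2B1 of the alpha subunit had 24.5 against 13.7 FPKM, a ratio of 1.79 (1.66 to 1.94). EIF2B2 (beta) had 10.4 against 7.49 FPKM and EIF2B5, the catalytic epsilon subunit, 10.9 against 9.2 FPKM, a ratio of 1.19 (1.1 to 1.28). EIF2B4 (delta) had 7.3 against 6.89 FPKM, with an interval that held 1 (0.956 to 1.18). At 0.07 in log2 ratio as deposited, it was -0.04 with the all-gene median set to 0 and -0.03 under TPM. The complex is built from 2 copies of each subunit, and its mRNAs spanned 3.35-fold in level in the library labelled shTRIP13 and 2.82-fold in the control library.

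The subunits of eIF3, the large scaffold on the small ribosomal subunit, lay on both sides of 1. Of 14 genes, 11 had intervals above 1 (78.6%, against 49% of all genes) and 3 below 1 (21.4%, against 29.5% of all genes). At a mean of at least 5 FPKM, 57.4% of genes had intervals above 1. The 11 include EIF3C and EIF3CL, described below as uncertain. Set against the median ratio over all genes, 1.1, the intervals of 9 lay above it (37.9% of all genes) and those of 4 below it (38.1% of all genes). EIF3J, a loosely bound subunit, had 34.8 FPKM in the library labelled shTRIP13 and 19 FPKM in the control library, a ratio of 1.83 (1.71 to 1.97). EIF3B, part of the module that carries the WD-repeat proteins, had 38 against 22.9 FPKM, a ratio of 1.66 (1.6 to 1.73). EIF3K followed at 55.5 against 37.3 FPKM, with a ratio of 1.49 (1.41 to 1.57). EIF3I, the most abundant eIF3 mRNA, had 174 against 129 FPKM, and EIF3M had 18.5 against 13.7 FPKM. Both had a ratio of 1.35. EIF3A, which bridges the complex, EIF3G and EIF3H had ratios between 1.12 and 1.19, near the median gene.

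Lower were EIF3L, EIF3D and EIF3F. EIF3L had 22.2 FPKM in the library labelled shTRIP13 and 32.7 FPKM in the control library, a ratio of 0.68 (0.641 to 0.722), the lowest of all members in log2 ratio. Of its exon length, 51.8% overlaps other annotated genes, and AL022311.1, which shares the most of it, had 34 against 66 reads. EIF3D, a subunit that can bind the cap of selected mRNAs, had 46.1 against 60.8 FPKM, a ratio of 0.757 (0.725 to 0.791), with no overlap in the annotation. EIF3F had 14.5 against 15.8 FPKM, a ratio of 0.917 (0.87 to 0.967). EIF3E had 38.2 against 36.5 FPKM, a log2 ratio of 0.06 as deposited that was -0.06 once the all-gene median was set to 0. EIF3K and EIF3L contact each other in the human complex, and their ratios of 1.49 and 0.68, the latter uncertain, lay on either side of 1.

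EIF3C and EIF3CL were the other 2 genes past 2-fold and are uncertain. EIF3C had 9.3 against 3.78 FPKM, a ratio of 2.46 (2.22 to 2.74), and EIF3CL had 2.52 against 0.684 FPKM, a ratio of 3.68 (2.59 to 5.34) from 151 against 41 reads. EIF3CL met the filter through the library in which it is high. Their coding sequences had 0 mismatches over 2739 aligned bases, and 95.2% of the 100-base windows of the EIF3CL transcripts occur in transcripts of EIF3C. A read within such a window cannot be told apart between them, and its part in their levels and ratios was not tested. Pooled, they had 1410 against 552 reads, a ratio of 2.55 (2.31 to 2.82). The log2 ratio of EIF3C lay between 0.70 and 1.28 over the alternatives and that of EIF3CL between 0.40 and 1.74. Without EIF3C and EIF3CL, eIF3 subunits spanned 12-fold in level in the library labelled shTRIP13 and 9.43-fold in the control library. These levels are per whole annotated exon length. In the library labelled shTRIP13 the ends were EIF3I, with 5819 reads over 1725 bases, and EIF3F, with 2652 reads over 9431 bases. The part of exon length in the span was not tested.

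**Figure D3:**
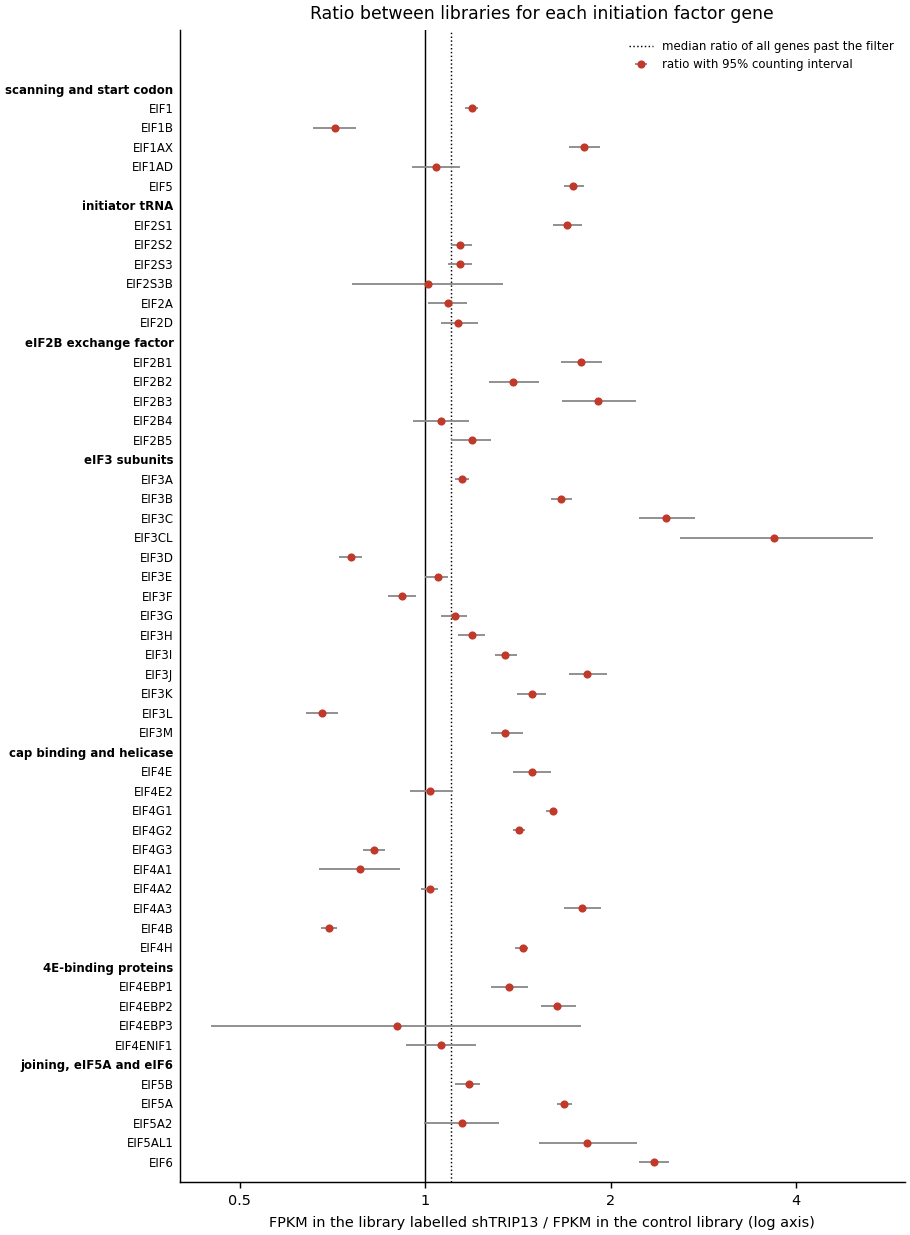
Ratio of FPKM in the library labelled shTRIP13 over the control library, on a log axis, for 49 initiation factor genes grouped by role. Points are ratios and bars 95% counting intervals. The solid line is 1 and the dotted line is the median ratio of all genes, 1.1. EIF3L, EIF4B and EIF1B lie at the low end, below 0.72, and EIF6, EIF3C and EIF3CL at the high end, above 2.

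In the cap-binding complex, EIF4G1 and EIF4E were higher and EIF4B and EIF4G3 were lower. EIF4G1 (ENSG00000114867, hg38 chromosome 3, 184314495 to 184335358, plus strand), the main scaffold, had 125 FPKM in the library labelled shTRIP13 and 77.9 FPKM in the control library. Its ratio was 1.61 (1.57 to 1.64) from 20046 against 12473 reads. EIF4E, the cap-binding protein, had 6.73 against 4.52 FPKM, a ratio of 1.49 (1.39 to 1.6). The level of EIF4G1 was 18.6 times that of EIF4E in the library labelled shTRIP13 and 17.3 times in the control library. The exon length of EIF4E in the table, 14067 bases, is the longest of the members, and FPKM is per that whole length. EIF4E2, a cap-binding homologue that represses translation, had 9.08 against 8.89 FPKM with an interval that held 1 (0.944 to 1.11).

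EIF4G2, a relative of eIF4G without the eIF4E-binding part, had 112 against 79.2 FPKM, a ratio of 1.42 (1.39 to 1.45). EIF4G3, the second full scaffold, went the other way with 21.6 against 26.2 FPKM, a ratio of 0.826 (0.792 to 0.862). EIF4H and EIF4B both stimulate the helicase eIF4A, and their mRNAs lay on opposite sides of 1. EIF4H had 220 against 153 FPKM, a ratio of 1.44 (1.4 to 1.47). EIF4B (ENSG00000063046, hg38 chromosome 12, 53006158 to 53042209, plus strand) had 61.1 against 87.4 FPKM, a ratio of 0.698 (0.678 to 0.72) from 7273 against 10416 reads. Its log2 ratio stayed between -0.63 and -0.48 over the alternatives. EIF4A3, the helicase of the exon junction complex, had 24.3 against 13.5 FPKM, a ratio of 1.8 (1.68 to 1.93). EIF4A2 had 58.5 against 57.5 FPKM, with an interval that held 1 (0.984 to 1.05).

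EIF4A1, usually a major helicase gene of dividing cells, was listed at only 3.09 FPKM in the library labelled shTRIP13 and 3.94 FPKM in the control library, from 318 and 406 reads, a ratio of 0.783 (0.674 to 0.909). Its pseudogene EIF4A1P10 was listed at a higher level than EIF4A1, 9.12 against 8.74 FPKM. Of the exon length of EIF4A1, 48.6% overlaps other annotated genes, and 35.6% of its 100-base transcript windows occur in transcripts of other genes. How reads that overlap several genes were counted is not given in the sources used here, and its part in the value was not tested, so EIF4A1 is uncertain. EEF1G, an elongation factor gene that every cell uses, was listed at 0 in both libraries.

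**Figure D4:**
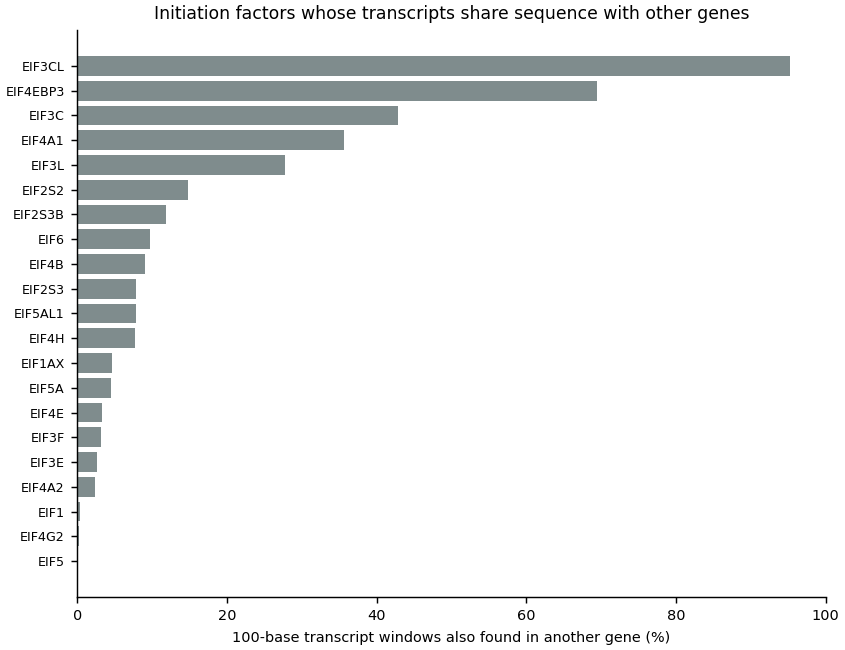
Share of 100-base windows of the transcripts of each gene that occur word for word in a transcript of another gene (x axis, percent), for the 21 initiation factor genes past the filter with any such window. EIF3CL (95.2%), EIF4EBP3 (69.4%), EIF3C (42.9%) and EIF4A1 (35.6%) stand at the top, and 28 genes with none are not drawn.

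Promoter windows, 250 bases before to 50 bases after a gene's start, were found for 44 members in RefSeq (GRCh38.p14). The E-box CACGTG, a palindrome that reads the same on both strands and is bound by MYC and other factors, occurred in at least 1 window of 11 of them, 25% of the 44, where 8.77% of all 27305 genes with a window held it. Among those past the filter it was 26.8% of 41 members and 13.1% of 8569 protein-coding genes. The 11 were EIF1B, EIF2B3, EIF3F, EIF3K, EIF4A3, EIF4B, EIF4E, EIF4EBP3, EIF4G1, EIF4H and EIF5A2, so genes on both sides of 1 were among them. MYC itself had 44.6 against 39.9 FPKM, a ratio of 1.12 (1.06 to 1.18), near the median ratio of 1.1 over all genes. The windows of EIF4G1 and EIF4E, both higher, and EIF4B, lower, are shown with the E-box in capitals because all 3 encode factors that act at the cap. The EIF4G1 window with the E-box lies at chr3:184314356-184314655 on the plus strand, that of EIF4E at chr4:98929084-98929383 on the minus strand and that of EIF4B at chr12:53006206-53006505 on the plus strand.
EIF4G1 promoter: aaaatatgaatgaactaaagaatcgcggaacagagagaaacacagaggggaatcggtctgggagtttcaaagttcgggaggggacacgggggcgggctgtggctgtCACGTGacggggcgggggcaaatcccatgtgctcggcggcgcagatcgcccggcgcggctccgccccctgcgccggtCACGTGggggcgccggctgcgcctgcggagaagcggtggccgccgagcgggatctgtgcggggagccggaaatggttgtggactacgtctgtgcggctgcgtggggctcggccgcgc
EIF4E promoter: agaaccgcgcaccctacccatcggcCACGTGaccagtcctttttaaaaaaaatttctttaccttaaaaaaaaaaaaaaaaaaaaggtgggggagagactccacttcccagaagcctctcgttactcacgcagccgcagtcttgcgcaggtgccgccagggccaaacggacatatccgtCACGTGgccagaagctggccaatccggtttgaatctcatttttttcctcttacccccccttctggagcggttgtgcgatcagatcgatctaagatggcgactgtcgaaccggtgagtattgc
EIF4B promoter: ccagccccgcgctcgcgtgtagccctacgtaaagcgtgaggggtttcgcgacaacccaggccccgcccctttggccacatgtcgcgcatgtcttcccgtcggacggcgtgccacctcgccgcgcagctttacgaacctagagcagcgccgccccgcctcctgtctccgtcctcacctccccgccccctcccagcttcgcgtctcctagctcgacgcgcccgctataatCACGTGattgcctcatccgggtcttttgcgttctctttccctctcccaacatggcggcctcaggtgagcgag
RefSeq gives 3 windows for EIF4G1, and the other 2 hold no E-box. The boxes start 144 and 67 bases before the start site in EIF4G1, 225 and 72 before it in EIF4E, and 22 before it in EIF4B. A match of letters is a description and not a binding site.

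The 4E-binding proteins hold eIF4E away from eIF4G until they are phosphorylated. EIF4EBP1 had 103 FPKM in the library labelled shTRIP13 and 74.9 FPKM in the control library, a ratio of 1.37 (1.28 to 1.47). EIF4EBP2 had 16.6 against 10.1 FPKM, a ratio of 1.64 (1.54 to 1.76). EIF4EBP1 was 15.3 times the level of EIF4E in the library labelled shTRIP13 and 16.6 times in the control library. That is per whole annotated exon length, 1073 bases for EIF4EBP1 and 14067 for EIF4E. Their reads were 2138 and 1835 in the library labelled shTRIP13 and 1558 and 1231 in the control library. EIF4EBP3 had 18 against 20 reads, and 73.4% of its exon length overlaps the read-through gene ANKHD1-EIF4EBP3, so no direction is read for it. EIF4ENIF1, which carries eIF4E into the nucleus, had 4.12 against 3.88 FPKM with an interval that held 1 (0.932 to 1.21).

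The 3 members below the filter were EIF4E3, EIF4E1B and EIF1AY. EIF4E3, another cap-binding homologue, had 0.416 against 0.321 FPKM, from 87 and 67 reads, and its interval held 1 (0.933 to 1.81). EIF4E1B, known as an oocyte form, was listed at 0 in both libraries, where a count of 0 allows up to 3 reads. EIF1AY lies on chromosome Y and no level is given for it.

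Other genes of initiation and its control were also described by lists of names. The first list held 7 genes, the eIF2 kinases, the phosphatase subunits and the regulator IMPACT. Of the 7, 1 was at least 1.5-fold higher (14.3%, near the 12.5% of all genes) and 0 lower (10.2% of all genes). It was PPP1R15A (GADD34), which recruits the phosphatase that reverses eIF2 phosphorylation, at 51.9 against 32.4 FPKM, a ratio of 1.6 (1.51 to 1.69). The amino acid sensor EIF2AK4 (7.4 against 9.74 FPKM), the endoplasmic reticulum kinase EIF2AK3 (3.15 against 4.2) and the heme-regulated EIF2AK1 (21.4 against 25.7) had intervals below 1, and the double-stranded RNA kinase EIF2AK2 had 12.3 against 10.6 FPKM.

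Of 20 partners and regulators of initiation, 19 passed the filter, with a median log2 ratio of 0.25. At least 1.5-fold higher were 4 (21.1%, against 12.5% of all genes) and at least 1.5-fold lower 2 (10.5%, near the 10.2% of all genes). PDCD4, a protein that blocks eIF4A, had 5.29 FPKM in the library labelled shTRIP13 and 11.5 FPKM in the control library, a ratio of 0.461 (0.412 to 0.515) and a log2 ratio of -0.99. PAIP2, which pulls the poly(A)-binding protein away from eIF4G, had 12.9 against 22.8 FPKM, a ratio of 0.567 (0.519 to 0.619). BZW2, an eIF5 mimic, had 13.9 against 7.47 FPKM, a ratio of 1.86 (1.67 to 2.07), and ABCE1, which splits ribosomes for another round, 27.1 against 15.8 FPKM, a ratio of 1.72 (1.62 to 1.82).

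A list of 11 genes held mTORC1, its inputs and, downstream of it, RPS6 and the S6 kinase genes. Of these, 10 passed the filter with a median of 0.24, and 2 were at least 1.5-fold higher (20%, against 12.5% of all genes). RPTOR, which presents substrates such as the 4E-binding proteins to mTOR, had 14.6 against 7.41 FPKM, a ratio of 1.97 (1.85 to 2.1). RPS6KB2, a kinase of ribosomal protein S6, had 14 against 8.14 FPKM, a ratio of 1.72 (1.59 to 1.87). The inhibitory component AKT1S1 was lowest there in log2 ratio (-0.25), at 20.4 against 24.4 FPKM. DEPTOR, another inhibitory component and below the filter, went the other way with 52 against 27 reads, a ratio of 1.93 (1.19 to 3.19). Of 11 elongation and termination factors, 9 passed, with a median of 0.43, and 8 of the 9 had intervals above 1, as had 49% of all genes and 57.4% of those at a mean of at least 5 FPKM. EEF2K, the kinase that slows elongation through eEF2, had 12.1 against 6.96 FPKM, a ratio of 1.74 (1.62 to 1.88), and the release factor gene GSPT2 was lowest at 7.38 against 10 FPKM. The mitochondrial initiation factors MTIF2 and MTIF3 had 21.7 against 16.5 and 8.5 against 9.17 FPKM.

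**Figure D5:**
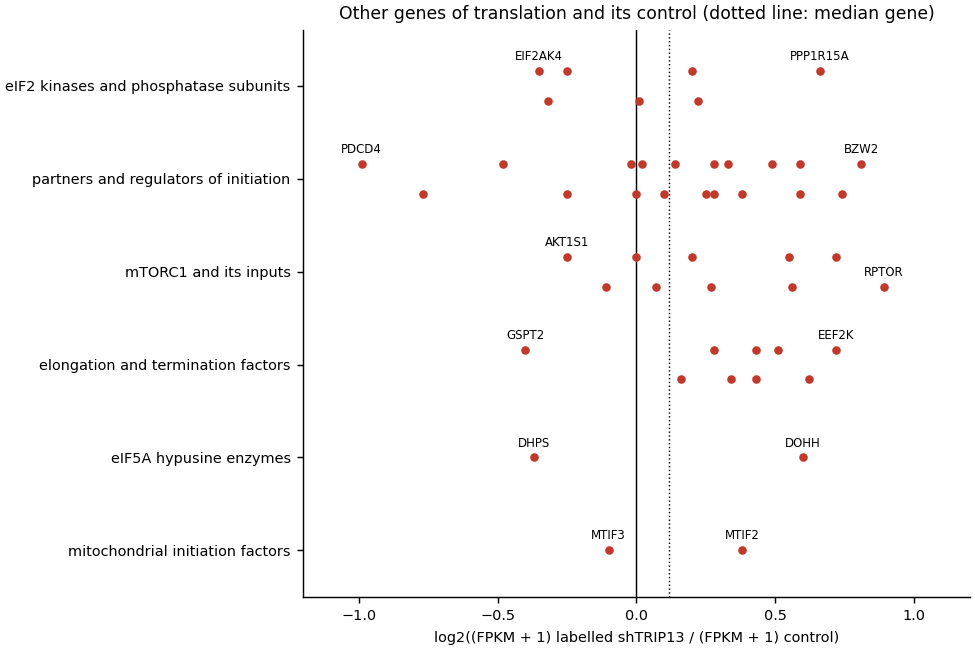
Log2 ratio (x axis) of the genes of 6 lists of translation genes past the filter, one list per row, with the highest and lowest gene of each named. Each point is a gene, its height within a row carries no meaning, the solid line is 0 and the dotted line the median of all genes, 0.12. PDCD4 at -0.99 and RPTOR at 0.89 are the ends.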

How the data were processed

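RNA was sequenced from 2 libraries, 1 labelled shTRIP13 and 1 control, grouped by their titles. The authors deposited FPKM values per gene. Per the submitters' processing notes, the build was hg38, and the tools listed, without role or setting, were edgeR, featureCounts 1.5.0-p3 and HISAT2 2.0.5. Strand use is not given in the sources used here. Identifiers, positions and strands of 58735 genes equal those of GENCODE release 29, which gave exon overlaps, transcripts and coding sequences. Per the file header, gene length accompanies each value. FPKM times length were whole multiples of a step of 51.5981 for 100% of values (tolerance 0.001 of a read), which gave reads. Log2 ratios used a pseudocount of 1 and a mean FPKM of 1 or more, and intervals are exact binomial at 95%. The intervals take reads as independent, which PCR copies are not.

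The rule of naming covered every initiation factor, those past a size rule and the ends of each role or list in full, and the ends and 2-fold genes of other lists. PAIP2, ABCE1, EIF2AK1, EIF2AK2, EIF2AK3, IMPACT, EEF1G, RPS6, RPS6KB2 and DEPTOR were named after their values were seen. Members and lists were chosen with earlier results of these data known. Alternatives were other pseudocounts, filters and scalings, and leaving out members with near-identical copies. No p-value was computed. Calculations were tested on simulated data. Protein identity was replaced by coding-sequence identity. Work was done in Python 3.11.15 with Biopython 1.88, matplotlib 3.10.9, scipy 1.17.1, pandas 2.3.3 and numpy 2.4.6.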

Additional observations from a re-analysis of the deposited data

Results flagged for a closer look

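Rows outside the protein-coding set also carry initiation factor names and were not part of the comparison. Of 74 such rows, 10 had a mean FPKM of 1 or more, and 3 of them had more reads in the library labelled shTRIP13 than in the control library beyond counting error. Another 3 had fewer (EIF3J-DT, EIF4BP7 and EIF4BP6), and the intervals of 4 held 1. Among protein-coding genes past the filter, 49% had intervals above 1 and 29.5% below 1, so these counts show no excess of higher rows. The shares over all rows outside the protein-coding set were not computed. The processed pseudogene EIF4EP2 had 274 against 134 reads, a ratio of 2.04 (1.66 to 2.53), beside 1.49 for EIF4E. EIF1AXP1 had 310 against 172 reads, a ratio of 1.8 (1.49 to 2.18), beside 1.81 for EIF1AX. EIF5AP4 had 230 against 147 reads, a ratio of 1.56 (1.27 to 1.94), beside 1.68 for EIF5A and 1.83 for EIF5AL1. Of the 100-base transcript windows, 4.59% of those of EIF1AX occur in EIF1AXP1, 2.77% of those of EIF4E in EIF4EP2 and 4.49% of those of EIF5AL1 in EIF5AP4. Whether the reads came from the pseudogene or the gene was not tested.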

How the results depend on the processing

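No paired analysis was possible because only 1 library stands for each condition. The median log2 ratio of the initiation factors, 0.24, was 0.25 with a pseudocount of 0.1 and 0.21 with 5. It was 0.23 without a filter and 0.33 at a mean FPKM of 5 or more. It was 0.17 with own totals and with totals that left out mitochondrial and the 50 most abundant genes, 0.12 with the median ratio of all genes set to 1, and 0.13 under TPM. The median over all genes, 0.12 as deposited, was 0.14 and 0.07 with those pseudocounts. It was 0.00 without a filter and 0.19 at a mean FPKM of 5 or more. With own totals it was 0.05, with the reduced totals 0.06 and under TPM -0.01. The median of the initiation factors was 0.23 without members of near-identical pairs and 0.33 without the 7 members that share at least 10% of their transcript windows, an alternative chosen after seeing the data. Members at least 2-fold higher numbered 3 (2.17% of all genes), but 2 at a mean FPKM of 5 or more (2.77% of all genes). They numbered 1 (EIF6) with a pseudocount of 5 (0.6% of all genes) and with the median ratio of 1 (1.39% of all genes). In both sets that left out such copies it was also 1 (2.17% of all genes). Members at least 1.5-fold lower numbered 0 (10.2% of all genes), but 2 with own totals (11.7% of all genes) and 3 with the median ratio of 1 (13.3% of all genes). Under TPM they numbered 3 (17.2% of all genes) and with the reduced totals 1 (11.5% of all genes). In the other translation lists, 10 genes were at least 1.5-fold higher (12.5% of all genes), against 4 with a pseudocount of 5 (5.9% of all genes). With own totals and with the reduced totals it was 6 (9.62% and 9.93% of all genes), and with the median ratio of 1 it was 5 (7.83% of all genes). There, 0 genes were at least 2-fold lower (4.19% of all genes), against 1 with a pseudocount of 0.1 (6.34% of all genes). It was also 1 with own totals (4.81%), the median ratio of 1 (5.37%), TPM (7.85%) and the reduced totals (4.73%, all of all genes). The causes were not tested. Of 385 alternative log2 ratios of single members, 269 stayed within the counting interval and 116 did not. A filter cannot change the log2 ratio of a gene, so values under the other filters are among the 269 by construction. All 116 came from the other pseudocounts and scalings. The sign turned for 8 of 49 members, none past a size rule.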

Other observations

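Pseudogene rows of EIF4B were lower, as EIF4B was. EIF4BP7 had 89 reads in the library labelled shTRIP13 and 162 in the control library, a ratio of 0.549 (0.419 to 0.716), and EIF4BP6 had 47 against 105, a ratio of 0.448 (0.31 to 0.637). EIF3J-DT, the lincRNA annotated beside EIF3J, had 205 against 295 reads, a ratio of 0.695 (0.579 to 0.833), while EIF3J had a ratio of 1.83. These rows were picked after their values were seen.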
